A study of Rattus norvegicus with 6 samples.

Results

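Sphingosine-1-phosphate (S1P) is a signalling lipid. Inside the cell it is made from sphingosine by sphingosine kinases, and it is either returned to sphingosine by phosphatases or broken down for good by S1P lyase. S1P that leaves the cell acts on a family of G protein-coupled receptors, of which S1PR1 couples to inhibitory G proteins and guides lymphocytes out of lymphoid tissue, whereas S1PR2 acts mainly on the cytoskeleton. Siponimod is a synthetic ligand that binds S1PR1 and S1PR5, and its prolonged presence removes S1PR1 from the cell surface. The genes described here are the 5 receptor genes (S1pr1 to S1pr5), the sphingosine kinase genes Sphk1 and Sphk2, the lyase gene Sgpl1, the phosphatase gene Sgpp1 and the exporter gene Spns2, taken by name. All 10 were found among the 23139 genes listed, and 7 of them had enough reads to be tested.

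The 6 libraries are polyA-selected mRNA of primary microglia, which were shaken off mixed cortical cultures of Wistar rats (postnatal day 1) and purified with CD11b/c beads. The 3 LPS libraries received 100 ng/mL lipopolysaccharide (LPS, a bacterial membrane component that activates microglia) with the solvent DMSO. The 3 LPS/siponimod libraries received the same LPS together with 50 µM siponimod in serum-containing medium. All 6 thus carry LPS, cells without LPS or with siponimod alone were not analysed here, and the methods give 1 and 3 days of stimulation for fixed or lysed cultures without naming the time for the sequenced ones. Total counts per library lay between 38080379 and 46643859, at which 3 reads correspond to between 0.0646 and 0.081 CPM (read counts scaled to the library size). The question put to the data was whether the genes of the drug's own receptors, of the other receptors and of S1P metabolism differed between LPS/siponimod and LPS.

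Before the results, 2 libraries need to be set apart. LPS replicate 3 correlated with LPS replicates 1 and 2 at 0.935 and 0.945 over genes (log2 CPM), against 0.983 between those 2. It also held 515 reads of Olig1, a transcription factor of the oligodendrocyte lineage, where LPS replicates 1 and 2 held 1 and 5. LPS/siponimod replicate 3 held 17 Olig1 reads and 81 reads of Pdgfra, the receptor that marks oligodendrocyte precursors, against 1 and 4 Pdgfra reads in LPS/siponimod replicates 1 and 2. The calls on S1P genes and on the pathway lists are therefore also given without both libraries, a fit in which 11.1% of 12032 genes tested were higher and 8.17% lower with LPS/siponimod.

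As a sum, microglial markers were plentiful in all 6 libraries, although single markers such as Cx3cr1 had few reads. Itgam, which encodes the CD11b chain used for purification, had 35056, 37771 and 38940 reads in the LPS libraries, compared with 23797, 25285 and 22392 in those with siponimod. Cx3cr1, the fractalkine receptor gene of resting microglia, had 69, 202 and 35 reads in the LPS libraries, compared with 3, 21 and 4 in those with siponimod. The summed level of 10 microglial markers, of which Csf1r had the most reads, was 7169, 5965 and 3972 CPM with LPS and 2497, 3559 and 1950 CPM with LPS/siponimod. Aif1, Itgam and Cx3cr1 were downregulated and none of the 10 was upregulated without the replicate number as a block, and with it Csf1r, P2ry12 and C1qa were also downregulated. With single libraries left out, the calls of Aif1 and Cx3cr1 were lost in 4 of 6 fits and that of Itgam in 3 of 6. Cx3cr1 reached the level of the low-count filter in 3 LPS libraries but 1 LPS/siponimod library, so that its call is given as a description. The part of this lower sum in the results on S1P genes was not tested. Since these are bulk samples, fewer cells of a type and less RNA per cell cannot be told apart.

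The sequences ahead of 3 receptor genes that the results turn on are shown for comparison, as the 250 bases before the start site of S1pr1, S1pr4 and S1pr2, from RefSeq (rat build GRCr8, which is not the build the reads were mapped to). S1pr1 and S1pr4 were higher with LPS/siponimod and S1pr2 was not. Capitals mark short motifs found on either strand, CACCC (bound by Krüppel-like factors such as KLF2) and TGANTCA (bound by AP-1).
S1pr1, chr2:206314071-206314320, minus strand: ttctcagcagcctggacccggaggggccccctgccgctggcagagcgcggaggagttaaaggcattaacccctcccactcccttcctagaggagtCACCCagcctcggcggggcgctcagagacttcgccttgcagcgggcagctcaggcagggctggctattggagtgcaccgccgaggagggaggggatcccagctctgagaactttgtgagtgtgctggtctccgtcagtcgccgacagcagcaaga
S1pr4, chr7:8858278-8858527, plus strand: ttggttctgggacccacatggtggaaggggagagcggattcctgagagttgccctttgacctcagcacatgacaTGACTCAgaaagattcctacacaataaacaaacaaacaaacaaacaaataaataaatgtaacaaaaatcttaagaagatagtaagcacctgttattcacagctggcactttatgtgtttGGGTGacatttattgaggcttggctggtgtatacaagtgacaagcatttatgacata
S1pr2, chr8:27790345-27790594, minus strand: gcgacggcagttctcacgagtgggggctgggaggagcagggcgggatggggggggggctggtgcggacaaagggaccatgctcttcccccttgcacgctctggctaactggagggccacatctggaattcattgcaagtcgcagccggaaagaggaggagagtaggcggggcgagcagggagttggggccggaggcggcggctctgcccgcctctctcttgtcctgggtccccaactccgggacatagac
CACCC stood once before S1pr1, beginning 155 bases ahead of the start, and once before S1pr4. It also stood before Sphk2 and Sgpl1, which were tested and not called, and before S1pr3, S1pr5 and Sphk1, which were not tested. It occurs in 49.2% of all 33469 windows of this length. The AP-1 letters stood before S1pr4 alone among these 3, 176 bases ahead of its start, and occur in 6.34% of all windows. TGACGTCA (the cyclic AMP response element, in 1.59% of windows), TGATGNAA (the site of ATF4 with C/EBP, 3.4%), AAAGGTCA (the site of NR4A receptors, 1.24%), TTCNNNGAA (the STAT site, 7.67%) and the NF-kB motif (0.314%) were also searched on both strands, and their letters are in none of these 3 windows. Such matches describe letters and not binding.

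S1pr1, the gene of siponimod's main target, was upregulated. It had 218, 95 and 49 reads in LPS replicates 1, 2 and 3 and 643, 918 and 1081 reads in LPS/siponimod replicates 1, 2 and 3. S1pr1 was among the 25.3% of all genes tested that lay higher without overlap. Its 3 LPS/siponimod libraries were all above the highest LPS library, which was replicate 1. After scaling to library size the level was 3.22 ± 2.37 CPM with LPS and 20.3 ± 6.27 CPM with LPS/siponimod (n = 3 each, SD), or a log2 fold change (FC) of 2.65 ± 0.58 (SE) at an adjusted p = 0.0223 by edgeR's quasi-likelihood test. The difference between same-numbered libraries was 1.23, 3.03 and 4.27 on the log2 scale, so that its direction was shared and its size was not. By the study's criteria for a differentially expressed gene (DEG), an adjusted p of at most 0.05 and an FC of at least 1.5, 25.3% of the 11977 genes tested were DEGs, 13.6% higher and 11.7% lower with LPS/siponimod. S1pr1 ranked 1104 by p-value and 352 by size among 5839 genes of positive log2 FC. The call was lost without LPS replicate 2 (log2 FC 2.49, adjusted p = 0.0975), without LPS/siponimod replicate 1 (2.85, 0.0641) and without LPS/siponimod replicate 3 (2.42, 0.0711) in the edgeR quasi-likelihood test. Without LPS replicate 1 the log2 FC was 3.43, and without both libraries of replicate 3 it was 2.05 and no longer called (quasi-likelihood adjusted p = 0.051).

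S1pr5, the gene of the other receptor that siponimod binds, was close to undetected in every library. Known as a receptor of oligodendrocytes and natural killer cells, it had 6, 6 and 1 reads in the LPS libraries, compared with 4, 0 and 2 reads in those with siponimod. The conditions overlapped, and the gene was not tested. Its 13 reads with LPS and 6 with LPS/siponimod correspond to a ratio of 0.394 per unit of depth with an exact 95% interval from 0.123 to 1.11, which covers counting error only, so that no difference was detectable at this depth. The 0 reads of LPS/siponimod replicate 2 allow up to 3 reads, or 0.0672 CPM. Markers of the cells in which S1pr5 is best known were also scarce, Mog having 1 read in all 6 libraries together and Klrd1 of natural killer cells none.

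**Figure D1:**
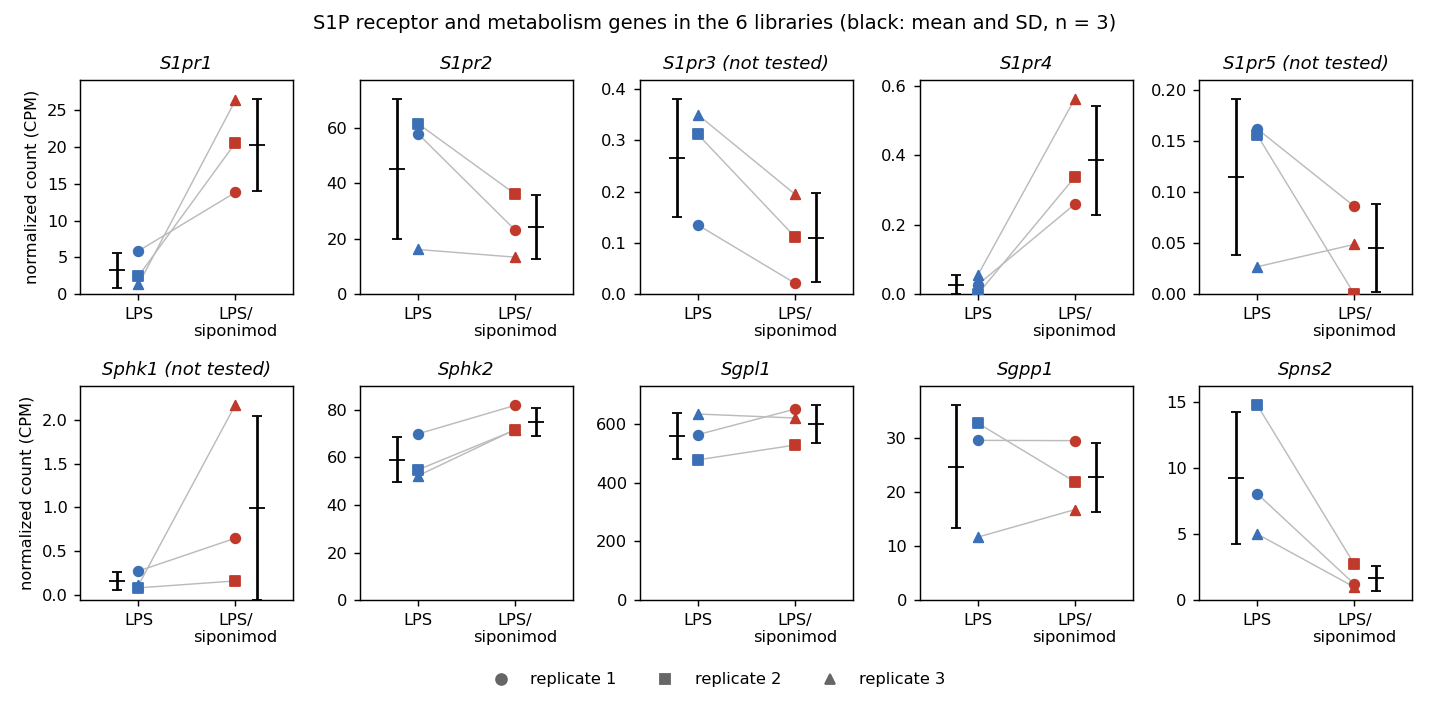
Normalized counts (CPM, linear axes that differ between panels) of the 10 genes with LPS (blue) and LPS/siponimod (red), one point per library, with grey lines joining libraries of the same number and black bars for mean and SD of n = 3. S1pr1, S1pr4 and Sphk2 lay higher and Spns2 lower in every LPS/siponimod library than in any LPS library, and the other genes overlapped. Of all genes tested, 25.3% lay higher and 24% lower in this way.

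Among the receptors that siponimod is not directed at, S1pr4 had almost no reads with LPS and a few more with LPS/siponimod. S1pr2 was lower on average but a DEG only when replicates were paired, and S1pr3 had few reads. S1pr4, a receptor gene of lymphoid and myeloid blood cells, had 1, 0 and 2 reads in the LPS libraries, compared with 12, 15 and 23 in those with siponimod. All LPS libraries were at or under the floor of 3 reads, so that S1pr4 was at least 4.82-fold higher against 3 reads per LPS library (quasi-likelihood adjusted p = 0.0251). It passed the low-count filter through the LPS/siponimod libraries alone, where it had 50 reads in all, so that its p-value depends on the condition in which it was higher and is given as a description. Its level there was 0.385 ± 0.157 CPM (SD, n = 3). The call was lost without LPS replicate 1 (quasi-likelihood adjusted p = 0.10), without LPS replicate 2 (0.0891), without LPS/siponimod replicate 1 (0.10), without LPS/siponimod replicate 3 (0.0826) and with no filter on low counts (0.0519), and it was kept without both libraries of replicate 3 (0.0494). Without LPS/siponimod replicate 2 it did not pass the filter. Lymphocyte markers as a list summed to 0.054, 0.026 and 0.0269 CPM with LPS and to 0.129, 0.112 and 0.0488 CPM with LPS/siponimod. Cd3e, Cd3g and Klrd1 had no read in any of the 6 libraries, while Cd2 had 3, 0 and 1 reads and Cd3d 0, 2 and 0 reads with LPS/siponimod and none with LPS. The part of lymphocyte RNA in the S1pr4 result was not tested.

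S1pr2, whose receptor acts on the cytoskeleton and restrains cell migration, had 2140, 2366 and 598 reads in the LPS libraries, compared with 1074, 1611 and 547 in those with siponimod. The conditions overlapped, because LPS replicate 3 lay below LPS/siponimod replicates 1 and 2, but each LPS/siponimod library was below the LPS library of the same number. The level was 45.1 ± 25.2 CPM with LPS and 24.2 ± 11.4 CPM with LPS/siponimod (n = 3 each, SD), which gave a difference of -0.90 ± 0.57 (log2 FC ± SE) at an adjusted p = 0.27 in edgeR's quasi-likelihood test. With the replicate number as a block S1pr2 was a downregulated DEG (log2 FC -0.79 ± 0.22 SE, adjusted p = 0.0462 by edgeR's quasi-likelihood test), in a fit in which 16.4% of all genes were lower. Without LPS replicate 3 and with no block the estimate moved to -1.30 (adjusted p = 0.0522 by quasi-likelihood), and without both libraries of replicate 3 to -1.01 (0.0537).

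S1pr3, best known from astrocytes and vascular cells, had 5, 12 and 13 reads in the LPS libraries, compared with 1, 5 and 8 in those with siponimod, and the conditions overlapped. Its summed reads, 30 against 14, gave a ratio of 0.398 with an exact 95% interval from 0.195 to 0.775 for counting error. It was not tested, and when no filter on low counts was applied its quasi-likelihood adjusted p was 0.376.

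Reads of S1pr1 made up a larger part of all receptor reads with LPS/siponimod. Of the summed reads of S1pr1 to S1pr5, S1pr1 had 9.2% (exact 95% interval for counting error only, 8.06 to 10.4), 3.83% (3.11 to 4.66) and 7.39% (5.52 to 9.65) in LPS replicates 1, 2 and 3, of which replicate 2 lay outside the intervals of the others. In LPS/siponimod replicates 1, 2 and 3 it had 37.1% (34.8 to 39.4), 36% (34.1 to 37.9) and 65.1% (62.7 to 67.4). S1pr2 supplied nearly all other receptor reads, between 90.2% and 95.4% with LPS and between 32.9% and 63.2% with LPS/siponimod. Shares of reads depend on transcript length, which cancels when the same gene pair is compared between libraries. The log2 ratio of S1pr1 to S1pr2 reads was -3.84 ± 0.70 with LPS and -0.19 ± 1.01 with LPS/siponimod (n = 3 each, SD). The difference of 3.65 separated the conditions completely and had an exact permutation p = 0.10 (two-sided), the smallest that 3 against 3 libraries allow, and 0.20 when adjusted over the 4 ratios computed. The other ratios, of S1pr1 to S1pr3, S1pr1 to S1pr4 and Sphk1 to Sphk2, are not given, since S1pr3, S1pr4 and Sphk1 lie at or under the floor in 1 or more libraries.

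The number of receptor reads as a whole did not separate the conditions. The 5 genes together gave 64.0, 64.4 and 17.9 CPM in LPS replicates 1, 2 and 3, and 37.3, 57.1 and 40.5 CPM in LPS/siponimod replicates 1, 2 and 3. LPS replicate 3 was lowest, with 663 receptor reads where the other LPS libraries had 2370 and 2479.

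**Figure D2:**
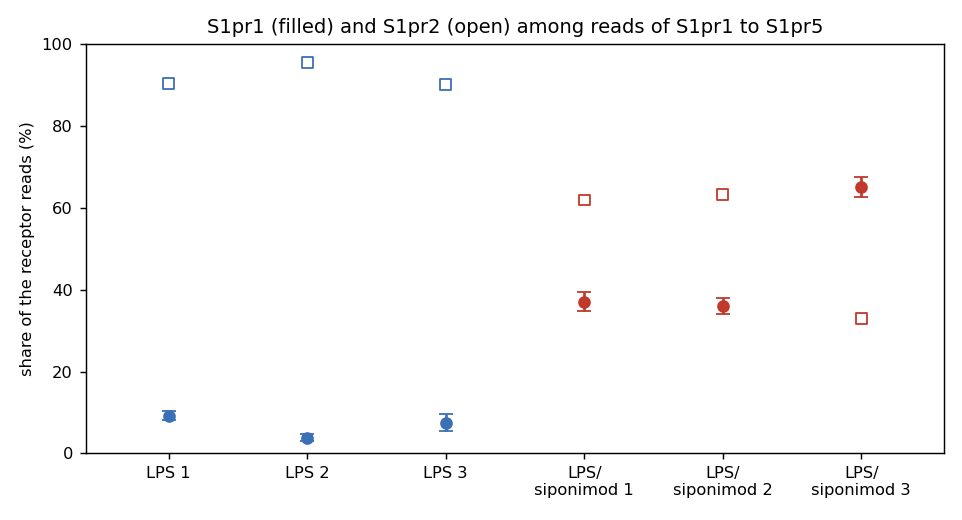
Share (%) of the reads of S1pr1 to S1pr5 that belonged to S1pr1 (filled circles, with exact 95% binomial intervals that cover counting error only) and to S1pr2 (open squares) in each library, LPS in blue and LPS/siponimod in red. S1pr1 had at most 9.2% of the receptor reads with LPS and at least 36% with LPS/siponimod, and its read share was above that of S1pr2 in LPS/siponimod replicate 3 only.

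Of the genes that make S1P, neither kinase gene was a DEG. Sphk1, the kinase gene that growth factors and inflammatory signals induce in many cells, had 10, 3 and 4 reads in the LPS libraries, compared with 30, 7 and 89 in those with siponimod. LPS/siponimod replicate 2 lay below LPS replicate 1, so that the conditions overlapped, and replicate 3 alone held 89 of the 126 reads with LPS/siponimod. It did not pass the low-count filter, and with no filter its log2 FC was 2.66 with a standard error of 1.04 (edgeR quasi-likelihood adjusted p = 0.133). In the RefSeq gene table Sphk1 overlaps Khps1a, a non-coding RNA gene, and since strand handling in counting is not stated the reads of both cannot be told apart.

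Sphk2, the kinase gene whose product is found largely in the nucleus and mitochondria, had 2591, 2113 and 1945 reads in the LPS libraries, compared with 3804, 3192 and 2939 in those with siponimod. The conditions did not overlap, although the gap was small, from 69.9 CPM in the highest LPS library to 71.5 CPM in the lowest LPS/siponimod library. Among all genes tested, 25.3% lay higher and 24% lower in this way. The level was 59.0 ± 9.51 CPM with LPS and 75.0 ± 5.93 CPM with LPS/siponimod (n = 3 each, SD), which gave a difference of 0.35 ± 0.15 (log2 FC ± SE) at an adjusted p = 0.125 in edgeR's quasi-likelihood test. With the replicate block the adjusted p was 0.059, and the change stayed under an FC of 1.5.

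Of the genes that remove S1P, Sgpl1 and Sgpp1 differed by less than the spread between libraries. Sgpl1, the lyase gene, had 20874, 18396 and 23522 reads in the LPS libraries, compared with 30187, 23551 and 25409 in those with siponimod. After scaling, the LPS libraries spanned 478 to 633 CPM and the LPS/siponimod libraries 528 to 650 CPM, so that the conditions overlapped. Its log2 FC of 0.10 had a standard error of 0.17 (edgeR quasi-likelihood adjusted p = 0.681). Sgpp1, which encodes an S1P phosphatase of the endoplasmic reticulum, had 1096, 1263 and 434 reads in the LPS libraries, compared with 1372, 980 and 687 in those with siponimod (log2 FC -0.12 ± 0.41 SE, adjusted p = 0.849 by edgeR's quasi-likelihood test). Its same-numbered differences were 0.00, -0.58 and 0.52 on the log2 scale and shared no direction, and the fitted sign turned when LPS replicate 1, LPS replicate 2 or LPS/siponimod replicate 3 was left out. LPS replicate 3 was the lowest LPS library for Sgpp1, as it was for S1pr1 and S1pr2.

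Spns2, the gene of the transporter that carries S1P out of the cell, was downregulated. It had 298, 568 and 186 reads in the LPS libraries, compared with 57, 122 and 41 in those with siponimod. The highest LPS/siponimod library lay below the lowest LPS library, as for 24% of all genes tested. The level was 9.26 ± 4.98 CPM with LPS and 1.65 ± 0.942 CPM with LPS/siponimod (n = 3 each, SD), which gave a difference of -2.48 ± 0.56 (log2 FC ± SE) at an adjusted p = 0.0246 in edgeR's quasi-likelihood test. In same-numbered libraries the differences were -2.67, -2.41 and -2.27 on the log2 scale, the narrowest range over the pairs of the 3 genes called, and with the replicate block its standard error was 0.19. It ranked 762 by p-value and 198 by size among 6138 genes of negative log2 FC. The call was lost without LPS replicate 1 (quasi-likelihood adjusted p = 0.0599), without LPS replicate 2 (0.0866), without LPS/siponimod replicate 1 (0.107) and without LPS/siponimod replicate 3 (0.0797), and it was kept without both libraries of replicate 3 (log2 FC -2.52, 0.0426). Without LPS/siponimod replicate 2 the log2 FC was -3.06.

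**Figure D3:**
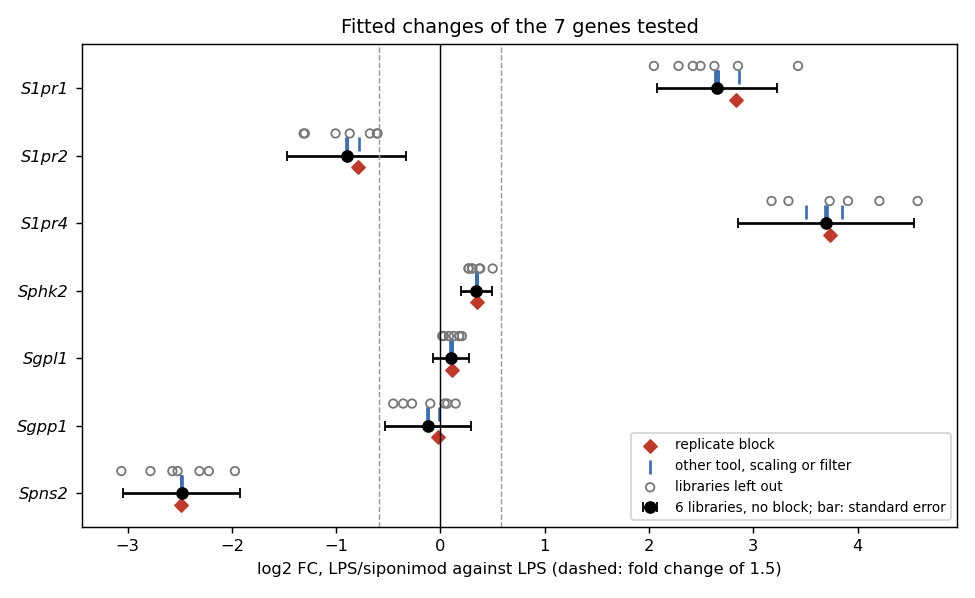
Fitted log2 FC (LPS/siponimod against LPS) of the 7 genes tested, with the standard error for all 6 libraries (black), the replicate block (red diamonds), other tools, scalings and filters (blue ticks) and fits with libraries left out (open circles). The fits of S1pr1 and S1pr4 all lay above an FC of 1.5 and those of Spns2 all below its inverse, whereas those of Sgpp1 fell on both sides of 0.

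In total, 2 of the 7 genes tested were higher and 1 was lower, where 13.6% of all genes were higher and 11.7% lower, and 4 were not called. Of the 2 higher genes, S1pr4 could be tested through its LPS/siponimod reads alone. With S1pr2 under the replicate block the numbers were 2 and 2, where 17.7% of all genes were higher and 16.4% lower. The members were chosen by name and not by value, and with so few of them the counts are given as a description without a test. Over the 6 libraries, log2 CPM of S1pr1 correlated at 0.863 with S1pr4, 0.869 with Sphk2, -0.766 with Spns2 and -0.227 with S1pr2, as a description of libraries that share their condition. Among all genes tested, those most like S1pr1 over the 6 libraries were Pbld2 (Pearson r = 0.996), Aftph (0.993) and Crip1 (0.992). For S1pr4 they included Add1 (0.999) and Pfkp (0.995), and for Spns2 they were Tspan14 (0.999), Mast3 (0.999) and Ubr3 (0.998). With 1, 0 and 2 reads of S1pr4 in the LPS libraries, its correlations depend largely on the prior count of 2. The genes named are the highest of 11976 over 6 libraries, so their r values are a description only.

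Among the other genes of the pathway, DEGs were about as frequent as among all genes. Of 58 other genes listed for S1P handling, receptor coupling and the related receptors of lysophosphatidic acid, 51 were tested, with 5 upregulated and 6 downregulated DEGs (13.6% and 11.7% of all genes) and a median log2 FC of -0.03, against -0.02 for all genes tested. With the replicate block, 10 were upregulated and 12 downregulated, beside 17.7% and 16.4% of all genes. Without both libraries of replicate 3, Plpp2, Abcc1, Gnaq, Rock2 and Stat3 kept their call among the 11 DEGs, and Acer1 (quasi-likelihood adjusted p = 0.066), Cers6 (0.0562), Gnai2 (0.0862), Klf2 (0.0811), Grk2 (0.0953) and Akt1 (0.123) lost it. In that fit Cd69 and Lpar1 were additionally higher and Lpar5 lower. Of the 11 DEGs, 2 (Plpp2 and Stat3) were called whichever single library was left out. Plpp2 and Acer1 passed the low-count filter mainly or only through the LPS/siponimod libraries, and their calls are given as a description. Gnaq lost the call without LPS replicate 2 or LPS/siponimod replicate 1, and Acer1, Cers6, Gnai2, Klf2, Grk2, Rock2 and Akt1 each lost it without any 1 of LPS replicates 1 and 2 and LPS/siponimod replicates 1 and 3, Rock2 also without LPS/siponimod replicate 2. Over the 9 genes that lost it, the largest quasi-likelihood adjusted p-values lay between 0.0502 (Abcc1, without LPS replicate 2) and 0.143 (Akt1, without LPS/siponimod replicate 1).

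Outside the 10 genes, 10 genes of S1P removal, export and carrying were listed and 8 tested (median log2 FC 0.42). By the quasi-likelihood test without a block 2 were higher and none was lower, beside 13.6% and 11.7% of all genes. Abcg2, the gene of another transporter, had 45, 61 and 25 reads in the LPS libraries and 9, 23 and 6 in those with siponimod. It missed the threshold (log2 FC -2.01, quasi-likelihood adjusted p = 0.0533) and was a downregulated DEG with the replicate block (-2.10, 0.016), and DESeq2, limma-voom and the likelihood ratio test each called 1 gene of this list lower. With the block Plpp3, a further lipid phosphatase gene, was an upregulated DEG (log2 FC 1.49, adjusted p = 0.0129 by quasi-likelihood). This made 3 higher and 1 lower in this list, beside 17.7% and 16.4% of all genes. Plpp2, which encodes a lipid phosphatase of the cell surface that acts on S1P and related lipids, had 9, 2 and 12 reads in the LPS libraries, compared with 325, 133 and 381 in those with siponimod (log2 FC 4.95 ± 0.74 SE, adjusted p = 0.00959 by edgeR's quasi-likelihood test). Every LPS/siponimod library was above every LPS library, as for 25.3% of all genes tested. Plpp2 reached the level of the low-count filter in 1 LPS library and 3 LPS/siponimod libraries, so that its p-value is given as a description. Abcc1, a multidrug transporter gene whose product also exports S1P in some cells, went from 69.6 ± 1.72 to 115 ± 8.05 CPM (n = 3 each, SD, with log2 FC 0.72 ± 0.11 SE, adjusted p = 0.00955 by edgeR's quasi-likelihood test). Mfsd2b, the S1P exporter of red blood cells and platelets, had no read in any library.

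Of the genes around sphingosine itself, 1 of 5 ceramidase genes, which free sphingosine from ceramide, was higher, beside 13.6% of all genes (median log2 FC of the 5 ceramidase genes 0.52). This was Acer1, with 0, 2 and 1 reads in the LPS libraries, compared with 27, 12 and 24 in those with siponimod, at least 5.99-fold higher against 3 reads per LPS library (quasi-likelihood adjusted p = 0.0192). Like S1pr4 it passed the filter through the LPS/siponimod libraries alone, and its p-value is given as a description. The lysosomal Asah1, with 229 ± 86.9 and 184 ± 35.4 CPM (n = 3 each, SD), was not called (log2 FC -0.32, quasi-likelihood adjusted p = 0.47). Of 4 ceramide synthase genes tested, which use sphingosine, 1 was lower (median -0.17), beside 11.7% of all genes. Cers6 fell from 76.9 ± 23.4 to 29.0 ± 11.9 CPM (log2 FC -1.41 ± 0.36 SE, adjusted p = 0.0328 by edgeR's quasi-likelihood test), and Cers1 and Cers3 had no read.

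Downstream of the receptors, 7 G protein alpha subunit genes held 1 upregulated and 1 downregulated DEG (median log2 FC 0.14), beside 13.6% and 11.7% of all genes. With the replicate block Gna13 was also higher (log2 FC 0.62, adjusted p = 0.0466 by quasi-likelihood). Gnai2, the inhibitory subunit gene through which S1PR1 signals in leukocytes, fell from 1388 ± 45.1 to 786 ± 122 CPM (n = 3 each, SD, with log2 FC -0.82 ± 0.18 SE, adjusted p = 0.0212 by edgeR's quasi-likelihood test). Gnaq, the subunit gene that couples receptors to phospholipase C, rose from 16.8 ± 1.42 to 27.3 ± 2.43 CPM (log2 FC 0.70 ± 0.13 SE, adjusted p = 0.0158 by edgeR's quasi-likelihood test). Of 12 effector genes tested 1 was higher, the gene Rock2 of a kinase that drives actomyosin contraction (log2 FC 0.67, quasi-likelihood adjusted p = 0.0386), and 2 were lower, Stat3 (-0.91, 0.00834) and Akt1 (-0.70, 0.0373), with a median of -0.19. With the replicate block the phospholipase gene Plcb2 was also higher (0.72, 0.0242), beside 17.7% of all genes.

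Genes that set how much S1PR1 is made or shown at the surface held 2 downregulated and no upregulated DEGs by the quasi-likelihood test among 10 tested (median log2 FC -0.39), beside 11.7% and 13.6% of all genes, and 4 lower and 1 higher at an unadjusted p under 0.05. DESeq2 called 4 lower and 1 higher, limma-voom 3 and 1, the likelihood ratio test 4 and 0, and RLE scaling gave 3 and 0. Without both libraries of replicate 3 the same list held no downregulated and 1 upregulated DEG, Cd69. Klf2, a transcription factor known to drive S1pr1 in T cells, had 643, 901 and 425 reads in the LPS libraries, compared with 36, 223 and 74 in those with siponimod (log2 FC -2.78 ± 0.69 SE, adjusted p = 0.0312 by edgeR's quasi-likelihood test). Opposite to S1pr1, every LPS/siponimod library was below every LPS library, as for 24% of all genes tested. Grk2, the kinase gene whose product marks S1PR1 for internalization, fell from 488 ± 16.5 to 216 ± 81.8 CPM (n = 3 each, SD, with log2 FC -1.18 ± 0.27 SE, adjusted p = 0.0259 by edgeR's quasi-likelihood test). The arrestin genes Arrb1 (log2 FC -0.92, quasi-likelihood adjusted p = 0.0516) and Arrb2 (-1.29, 0.0792) were no DEGs without the replicate block and were downregulated DEGs with it, at 0.0166 and 0.029. Cd69, whose protein pulls S1PR1 from the surface, had 225, 80 and 2009 reads in the LPS libraries, compared with 4250, 3464 and 6386 in those with siponimod. It was not a DEG without the block (log2 FC 2.38, quasi-likelihood adjusted p = 0.157) and was one with it (3.52, 0.0261), LPS replicate 3 standing apart from the other LPS libraries.

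No gene among 5 tested for lysophosphatidic acid receptors and autotaxin was a DEG by edgeR's quasi-likelihood test without a block (median log2 FC -1.09), with 1 higher and 1 lower at an unadjusted p under 0.05. DESeq2 called 1 higher and 2 lower, the likelihood ratio test 1 higher and 1 lower, and limma-voom none. Lpar3, which had the most reads of them, had 1227, 2002 and 333 reads in the LPS libraries, compared with 466, 1467 and 56 in those with siponimod (log2 FC -1.09 ± 1.09 SE, adjusted p = 0.475 by edgeR's quasi-likelihood test). With the replicate block Lpar1 was higher (log2 FC 3.53, adjusted p = 0.00897 by quasi-likelihood) and Lpar3 (-1.64, 0.033), Lpar5 (-3.26, 0.00945) and Enpp2, the autotaxin gene (-4.01, 0.0129), were lower, beside 17.7% and 16.4% of all genes, and without both libraries of replicate 3 Lpar1 was higher and Lpar5 lower.

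**Figure D4:**
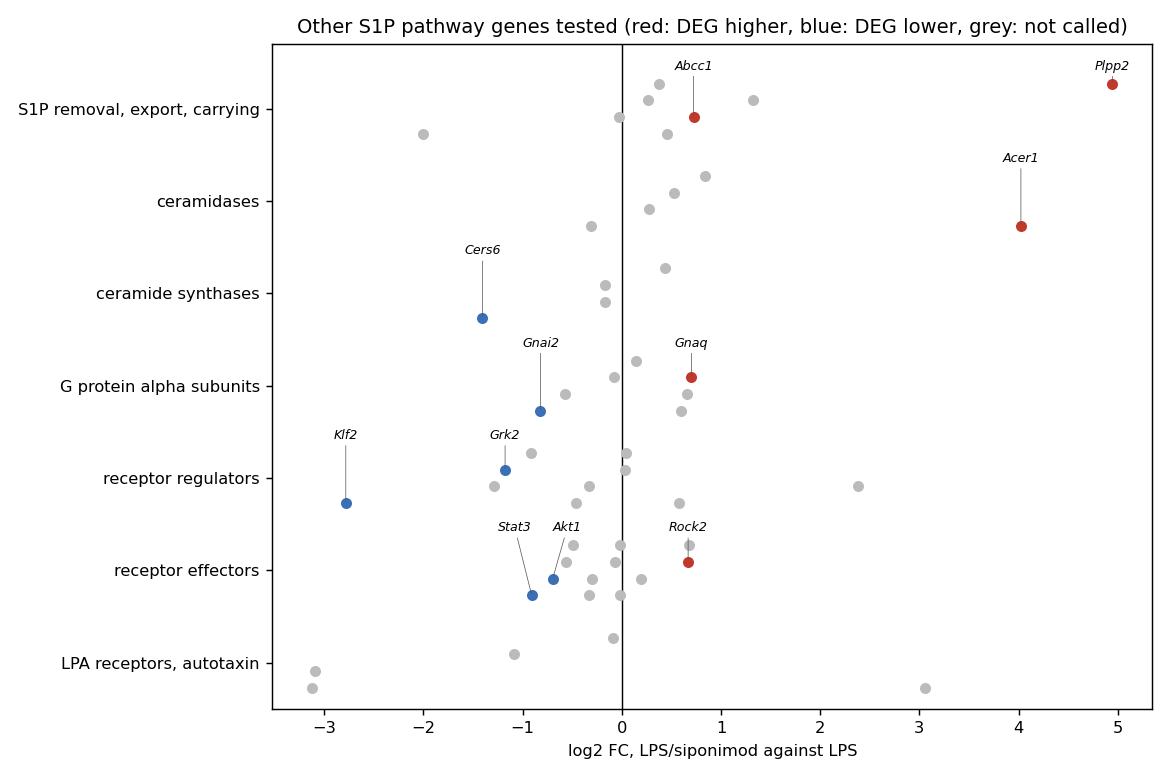
Log2 FC (LPS/siponimod against LPS) of the 51 other pathway genes tested, in 7 lists, one point per gene, spread vertically for legibility. Red points are the 5 upregulated and blue points the 6 downregulated DEGs, named beside them, and they stand in 6 of the 7 lists.

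Astrocytes and endothelial cells, which are known to carry S1pr1, had no marker that was an upregulated DEG. The summed CPM of 8 astrocyte markers was 48.4, 24.2 and 25.0 in LPS replicates 1, 2 and 3 and 29.3, 28.8 and 59.6 in LPS/siponimod replicates 1, 2 and 3. Slc1a3, the glutamate transporter gene with the most reads of them, had 40.5, 20.1 and 15.4 CPM with LPS and 26.3, 26.1 and 55.7 CPM with LPS/siponimod, lowest and highest in the same libraries as S1pr1, and was not a DEG. Gfap, the filament gene that defines astrocytes, had 1, 2 and 88 reads in the LPS libraries, compared with 0, 0 and 1 in those with siponimod. Of 4 astrocyte markers tested none was higher and 1, Aldoc, was lower, a call that was lost in 5 of 6 fits with single libraries left out. The part of astrocyte RNA in the S1pr1 result was not tested.

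The summed CPM of the 6 endothelial markers with a row was 168, 215 and 93.7 in the LPS libraries, compared with 39.7, 84.4 and 28.4 in those with siponimod, with most reads from Cdh5, and Emcn at 0 in all 6 libraries. These sums moved against S1pr1 and together with Spns2, a gene known from endothelium, and their part in the Spns2 result was not tested. Of 5 endothelial markers tested 1, Flt1, was lower and none was higher. Pecam1 (log2 FC -2.40, adjusted p = 0.00966 by quasi-likelihood) and Cdh5 (-1.48, 0.0142) were lower as well with the replicate block.

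For the oligodendrocyte lineage the sum was 5.37, 5.37 and 36.0 CPM in the LPS libraries, compared with 11.4, 10.3 and 22.6 CPM in those with siponimod. Mbp, with the most reads of this list over the 6 libraries together though fewer than Olig1 in LPS replicate 3, was the 1 of 3 tested that was a DEG, with 149, 161 and 84 reads in the LPS libraries, compared with 470, 397 and 652 in those with siponimod, and its call was lost in 3 of 6 fits with single libraries left out. Olig1, Olig2, Sox10 and Pdgfra had at most 5 reads in each of the 4 libraries of replicates 1 and 2. Summed neuronal markers, of which Tubb3 had the most reads, were 1.7, 1.04 and 11.4 CPM in the LPS libraries, compared with 6.41, 9.21 and 17.2 CPM in those with siponimod, and 1 of 2 tested, Snap25, was higher. Tubb3 was higher too with the replicate block (log2 FC 1.59, adjusted p = 0.0316 by quasi-likelihood). The sums of the fibroblast and mural list, with Dcn the only DEG of 5 tested and the gene with the most reads over the 6 libraries together, though not with LPS, were 6.04, 4.78 and 3.98 CPM in the LPS libraries, compared with 11.9, 4.64 and 8.68 CPM in those with siponimod. Snap25 (0, 1 and 1 reads with LPS) and Dcn (3, 0 and 4) passed the filter through the LPS/siponimod libraries alone, so that both calls are given as a description, and that of Dcn was lost in 3 of 6 fits with single libraries left out. Within each pair of libraries of replicates 1, 2 and 3 the neuronal sum, like S1pr1, was higher with LPS/siponimod, and the part of these lists in the S1pr1 and S1pr4 results was not tested. Among lymphocyte markers, Cd79a had the most reads.

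**Figure D5:**
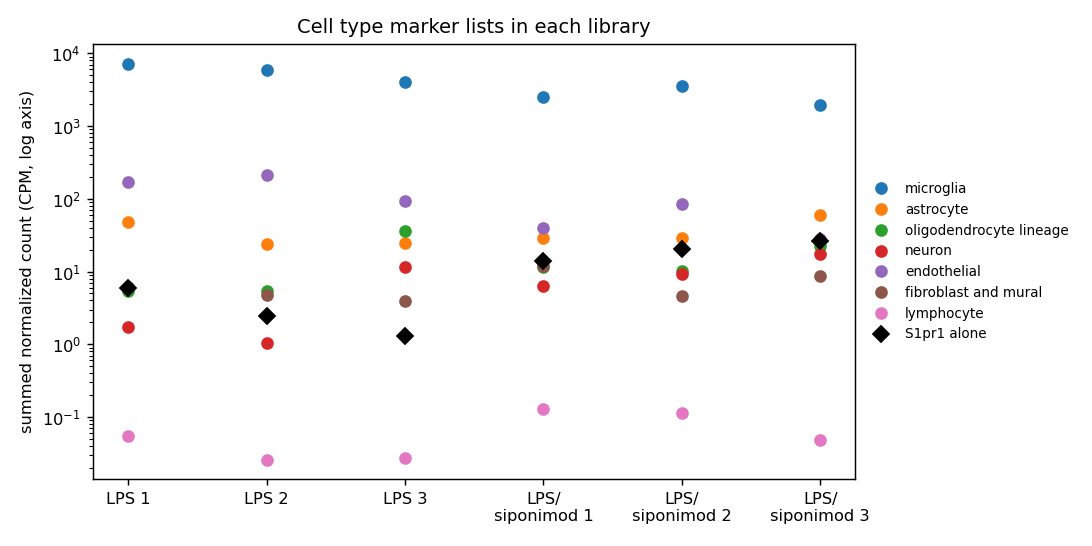
Summed normalized counts (CPM, log axis) of the marker lists of 7 cell types in each library, with S1pr1 alone as black diamonds. Microglial markers lay between 1950 and 7169 CPM, lymphocyte markers never passed 0.129 CPM, and the endothelial sums were lower in every LPS/siponimod library than in any LPS library while S1pr1 was higher.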

How the data were processed

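The deposited values are whole-number total read counts per gene in a separate table for each library, which the authors made without normalization: polyA mRNA was read single-end, converted with bcl2fastq (version 2.20.0.422 per the labels), trimmed and mapped to the rat genome mRatBN7.2 in the CLC Genomics Workbench. Handling of strand, introns and multi-mapping reads is not stated. In the table of LPS replicate 1, 1 row without name or value was dropped.

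The tools were edgeR 4.0.16, limma 3.58.1 and DESeq2 1.42.0 under R 4.3.3. Genes passed filterByExpr (11977 of 23139), were TMM-scaled and tested with glmQLFTest on the condition, Benjamini-Hochberg adjusted over all genes tested. CPM values use TMM-scaled library sizes, paired differences and correlations a prior count of 2, and ratios 0.5 added to each count. The standard error is the log2 FC divided by the root of F. Alternatives were RLE scaling, DESeq2, limma-voom, the likelihood ratio test, no filter, a mean of at least 1 CPM, a replicate block and libraries left out. The procedure was tested on simulated data. Same-numbered libraries deviated together (correlation 0.418, 0.546 and 0.61 over genes, against -0.534 to 0.084 for different numbers). From these values, and not from a stated source, the numbers were taken to pair libraries in the replicate block and the paired differences. The main test used no pairing. The study calls its 3 replicates biological and its n independent experiments, and p-values measure the spread between these libraries.

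Members and lists were chosen with earlier results of these data known. Named were all members, up to 4 called genes per list and direction or else the most abundant one, abundant markers and markers at 0, and the 3 genes most correlated with each called member. Of these, 1 gene so chosen for S1pr4 and 1 marker at 0 are not reported here. Arrb1, Arrb2, Cd69, Asah1, Mfsd2b, Abcg2, Plpp3, Gna13, Plcb2, Lpar1, Lpar5, Enpp2, Cd2, Cd3d, Pecam1, P2ry12, C1qa, Aif1, Itgam, Cx3cr1, Pdgfra, Olig1, Olig2, Sox10, Mog, Aldoc, Flt1, Snap25 and Gfap were chosen after their values were seen. Adrbk1 (an older name of Grk2), Cldn5 and Ncr1 were not analysed here. Transcript lengths were not used here, so an order of genes by reads or CPM is not an order of transcript levels.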

Additional observations from a re-analysis of the deposited data

How the results depend on the processing

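S1pr1, S1pr4, Spns2 and S1pr2 kept their direction in every alternative that tested them (edgeR's RLE scaling, DESeq2, limma-voom, the likelihood ratio test, no filter, a mean of at least 1 CPM, the replicate block, and libraries left out), and so did Sphk2 and Sgpl1. S1pr1 stayed a DEG under all except the removal of libraries, where its log2 FC ranged from 2.05 to 3.43, that of Spns2 from -3.06 to -1.97 and the fitted value of S1pr4, which depends on the prior count and is no bound, from 3.18 to 4.58. S1pr4 was not called with no filter (log2 FC 3.69, quasi-likelihood adjusted p = 0.0519) and was not tested under a mean of 1 CPM, so that 1 gene of the 10 was higher in each of these fits. Pairing the libraries by the replicate block made S1pr2 a downregulated DEG (-0.79), bringing the genes called lower to 2, and changed no other call among the 7. Sgpp1 changed sign without LPS replicate 1 (0.04), LPS replicate 2 (0.15) and LPS/siponimod replicate 3 (0.06), in a range from -0.45 to 0.15 over the libraries left out, and the cause was not tested. With libraries left out, the number of the 10 genes called ranged from 0 to 2 higher and from 0 to 1 lower, and the number of all DEGs from 469 to 1941 higher and from 182 to 1772 lower, lowest without LPS replicate 2 and highest without LPS replicate 3. The fit without both libraries of replicate 3 was chosen after the data were examined. Levels per length were not run, as no transcript lengths were used. Depth limits S1pr3, S1pr4, S1pr5 and Sphk1, which had at most 89 reads in any library.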
